A study of Mus musculus with 19 samples.

Results

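The genes described here are 46 genes that license, fire and copy at DNA replication origins, chosen by name from the 22193 genes measured in mouse cerebellum. They comprise the 6 subunits of the MCM helicase, 4 subunits of the origin recognition complex, 3 licensing factors, the 2 subunits of the origin firing kinase, 6 helicase activation factors, the sliding clamp with its 5 loader subunits, 8 primase and polymerase subunits, 4 single-strand binding and Okazaki fragment factors, 3 nucleotide supply enzymes, 2 fork protection factors and 2 chromatin assembly subunits. All 46 were found in the deposited tables, none was at 0 in any library, and all 46 passed the filter on low values in every comparison. For 11 of them, with a mean under 1 FPKM in the wild type libraries, passing against wild type rested on the knockout libraries.

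Bulk RNA from the cerebellum of C57BL/6 mice at postnatal day 60 was sequenced in 19 libraries. Ctrl was 3 libraries of wild type genotype. Olig1-Gnas was 8 libraries from mice with a conditional knockout of Gsa, the product of Gnas, made by Olig1Cre, and hGFAP-Gnas was 8 from mice with the same conditional knockout made by hGFAPCre. Olig1 is a gene of oligodendrocyte precursors and of other neural progenitors. The human GFAP promoter is active in embryonic neural progenitors that give rise to cerebellar granule neurons and glia. The Ctrl label names no Cre and no floxed allele, so knockout and Cre cannot be told apart in a comparison with Ctrl. The series is titled for a tumor suppressor role of Gsα in medulloblastoma, the cerebellar tumor, of the Sonic hedgehog type. The table of hGFAP-Gnas has "tumor" in its name and that of Olig1-Gnas does not.

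DNA replication is prepared when the origin recognition complex, with Cdc6 and Cdt1, loads the ring-shaped MCM helicase onto chromatin. The kinase Cdc7, bound to its activator Dbf4, then fires the origin by helping Cdc45 and the GINS complex to join the helicase, after which polymerases, the clamp Pcna and Okazaki fragment enzymes copy the strands. Most neurons of the adult cerebellum have left the cell cycle, whereas granule neuron progenitors, the cells from which Sonic hedgehog medulloblastoma arises, divide in the young animal. Many replication genes are known targets of the E2F transcription factors, which act at the entry into S phase.

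Since the members moved together, 5 promoters are shown as a description of the sequence in front of their start sites. Mcm6, Orc1 and Cdc6 were taken because their promoters hold E2F letters and their differences were the largest of their roles in Olig1-Gnas. Rrm2 was taken because it changed more than Orc1 and Cdc6 and holds no such letters, and Orc3 because it changed least. Sequences are those of RefSeq on the build GRCm38.p6, each covers the 250 bases before the annotated start on the gene's strand, and capitals mark exact matches to the E2F letters TTTGGCGC, TTTCCCGC, TTTCGCGC or TTTGCCGC on either strand. Mcm6 lies at chr1:128359706-128359955 on the minus strand, Orc1 at chr4:108579204-108579453 on the plus strand, Cdc6 at chr11:98907901-98908150 on the plus strand, Rrm2 at chr12:24708004-24708253 on the plus strand and Orc3 at chr4:34614943-34615192 on the minus strand.
Mcm6: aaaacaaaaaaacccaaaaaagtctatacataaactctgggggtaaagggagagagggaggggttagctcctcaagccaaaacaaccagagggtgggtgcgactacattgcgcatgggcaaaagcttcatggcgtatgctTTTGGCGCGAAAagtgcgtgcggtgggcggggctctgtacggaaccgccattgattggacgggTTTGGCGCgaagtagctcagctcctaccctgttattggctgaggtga
Orc1: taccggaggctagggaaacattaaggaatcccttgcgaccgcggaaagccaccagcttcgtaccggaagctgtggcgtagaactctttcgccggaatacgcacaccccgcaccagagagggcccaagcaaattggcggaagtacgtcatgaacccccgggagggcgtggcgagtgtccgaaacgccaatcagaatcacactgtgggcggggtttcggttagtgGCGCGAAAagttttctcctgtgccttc
Cdc6: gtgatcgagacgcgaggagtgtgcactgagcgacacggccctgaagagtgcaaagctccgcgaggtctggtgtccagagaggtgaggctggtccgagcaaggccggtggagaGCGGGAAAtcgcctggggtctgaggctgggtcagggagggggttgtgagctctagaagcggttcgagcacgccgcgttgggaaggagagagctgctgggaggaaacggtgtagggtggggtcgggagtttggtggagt
Rrm2: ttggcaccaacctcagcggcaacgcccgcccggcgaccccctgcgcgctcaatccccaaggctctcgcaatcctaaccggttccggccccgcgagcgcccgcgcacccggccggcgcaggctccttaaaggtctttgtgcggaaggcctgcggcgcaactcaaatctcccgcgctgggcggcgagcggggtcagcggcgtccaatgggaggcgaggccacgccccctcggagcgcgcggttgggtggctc
Orc3: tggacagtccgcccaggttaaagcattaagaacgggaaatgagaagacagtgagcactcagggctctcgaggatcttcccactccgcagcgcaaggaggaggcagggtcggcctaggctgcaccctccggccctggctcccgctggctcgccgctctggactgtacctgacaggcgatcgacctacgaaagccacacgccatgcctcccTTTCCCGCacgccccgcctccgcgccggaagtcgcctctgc
The Mcm6 promoter held 3 matches, 2 of them overlapping, the promoters of Orc1, Cdc6 and Orc3 held 1 each, and that of Rrm2 held none. Mcm2, Tk1, Chaf1b, Dbf4, Mcm10 and Cdc45, which also had larger differences than Orc1 and Cdc6, held none in their windows either. Mcm3, Mcm5 and Mcm7 had larger differences as well, 5.03, 3.77 and 4.04 in Olig1-Gnas, and held matches in theirs. Orc3, which was not called, carried such letters.

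Of the 46 members, 37 had an entry among the RefSeq promoters, each with 300 bases, 250 before and 50 from the start. An E2F match was found in 14 of these 37 members (37.8%), against 2.61% of the 27025 genes with an entry. Among windows rather than genes the shares were 31.8% of 44 member windows, 2.26% of 32851 windows in all and 2.98% of the 23085 windows with at least 47.2% G and C. The median share of G and C was 60.7% in member windows and 52.7% in all windows. The 14 genes were Mcm3, Mcm5, Mcm6, Mcm7, Orc1, Orc3, Cdc6, Cdt1, Gins3, Rfc3, Pola1, Pold1, Pole2 and Lig1. The GC box GGGCGG stood in 73.0% of the matched members and in 38.2% of all genes, and the letters CCAAT in 59.5% and 41.1%. The cell cycle homology letters TTTGAA or TTCGAA stood in 24.3% and 21.7%. All letters were counted on both strands, and matches of different searches can overlap. Members with and without an E2F match spanned similar differences from Ctrl in Olig1-Gnas, from 0.06 to 6.30 with 13 of 14 called and from 0.83 to 5.48 with 23 of 23 called. A match is a description of letters and was not tested as a binding site.

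Values are FPKM, fragments scaled to transcript length and to library size, so levels of different genes can be set side by side. No read totals were used here. Relative depth, read from steps among the lowest values, was 0.838 to 1.07 of that of Ctrl 2 in 10 deeper libraries (among them Ctrl 1, Olig1-Gnas 5, 6, 7 and 8, and the first 4 of hGFAP-Gnas) and 0.268 to 0.429 in the 9 shallower ones. The Y-linked gene Ddx3y was above 1 FPKM in 2 of the 3 Ctrl libraries, in 2 of the 8 from Olig1-Gnas and in 7 of the 8 from hGFAP-Gnas. Gnas itself does not check the labels: it is listed at 651 FPKM in Ctrl 1 of one table and at 0 in Ctrl 1 of the other, at 798 FPKM in Ctrl 2, at 0 in Ctrl 3, at 0 to 121 FPKM in Olig1-Gnas and at 0 to 40.9 FPKM in hGFAP-Gnas. Granule neuron markers were present in all libraries.

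The library hGFAP-Gnas 1 stood apart. Its 46 members summed to 374 FPKM, close to the 332 to 350 FPKM of the Ctrl libraries, whereas the other 7 hGFAP-Gnas libraries summed to between 1158 and 2608 FPKM and the 8 Olig1-Gnas libraries to between 2016 and 3446 FPKM. It was the lowest of the 8 hGFAP-Gnas libraries for 45 of 46 members, against 43.3% of all genes. The proliferation marker Mki67 was at 2.70 FPKM there, at 0.188 to 0.325 FPKM in Ctrl and at 43.0 to 165 FPKM in the other hGFAP-Gnas libraries. Olig1-Gnas 6 stood apart over all genes, as the highest of its group for 21.0% and the lowest for 32.0% of them. It was near these shares for the 46 members, highest for 9 and lowest for 15. For the members Olig1-Gnas 3 was most often the highest, for 28 (14.6% of all genes). Olig1-Gnas 8 was most often the lowest, for 18 (7.23% of all genes). Counts of calls, spans of complexes and the differences of the members described in most detail are therefore given for hGFAP-Gnas with and without hGFAP-Gnas 1; means and SDs include it.

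Replication genes were higher in both knockouts. In Olig1-Gnas, 45 of 46 members rose and none fell against Ctrl, where 36.2% of the 14183 genes tested were higher and 23.6% were lower. In hGFAP-Gnas, 44 of 46 rose and none fell, where 26.1% of 14305 genes were higher and 12.8% were lower. A gene was called where limma's adjusted p was under 0.05, and differences are in log2(FPKM + 1) with their SE, a scale on which folds of genes near or under 1 FPKM come out smaller than their ratios. The median difference of the members was 2.83 in Olig1-Gnas and 2.24 in hGFAP-Gnas, and that of all genes was 0.22 and 0.19. Without hGFAP-Gnas 1 the median was 2.53 and 45 members rose, where 38% of all genes were called higher. The filter on low values let members low in Ctrl pass through the knockout libraries. Without it, 45 members rose in Olig1-Gnas, against 5186 of 19181 genes called higher. In hGFAP-Gnas 43 rose without it, against 3543 of 19243 genes. Both comparisons use the same 3 Ctrl libraries, so they are not independent of each other.

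The spread between libraries differed between the knockouts. Every Olig1-Gnas library lay above every Ctrl library for 45 of 46 members, a separation seen in 32.2% of all genes tested. For hGFAP-Gnas this held for 27 members, against 15.2% of genes, and without hGFAP-Gnas 1 for 45 members, against 34.1% of genes; Orc3 was the exception in both knockouts. hGFAP-Gnas 1 alone was above every Ctrl library for 27 members, against 33.8% of genes. In hGFAP-Gnas, 23, 19 and 30 members were called without Ctrl 1, 2 and 3, against 5.98%, 4.78% and 10.5% of all genes called higher, and 18 at an adjusted p under 0.01, against 5.29%. Among the deeper libraries alone limma called no member in hGFAP-Gnas (0.0433% of genes were called). The median difference there was 1.93 for the members and 0.19 for all genes. With hGFAP-Gnas 1 left out of them limma called 44 (30.8%), and it called 36 among the shallower libraries (14.4%). In Olig1-Gnas the count was 44 in the deeper libraries (29.1% of genes), where Rpa1 was not called, and 45 in the shallower ones (26.8%).

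**Figure D1:**
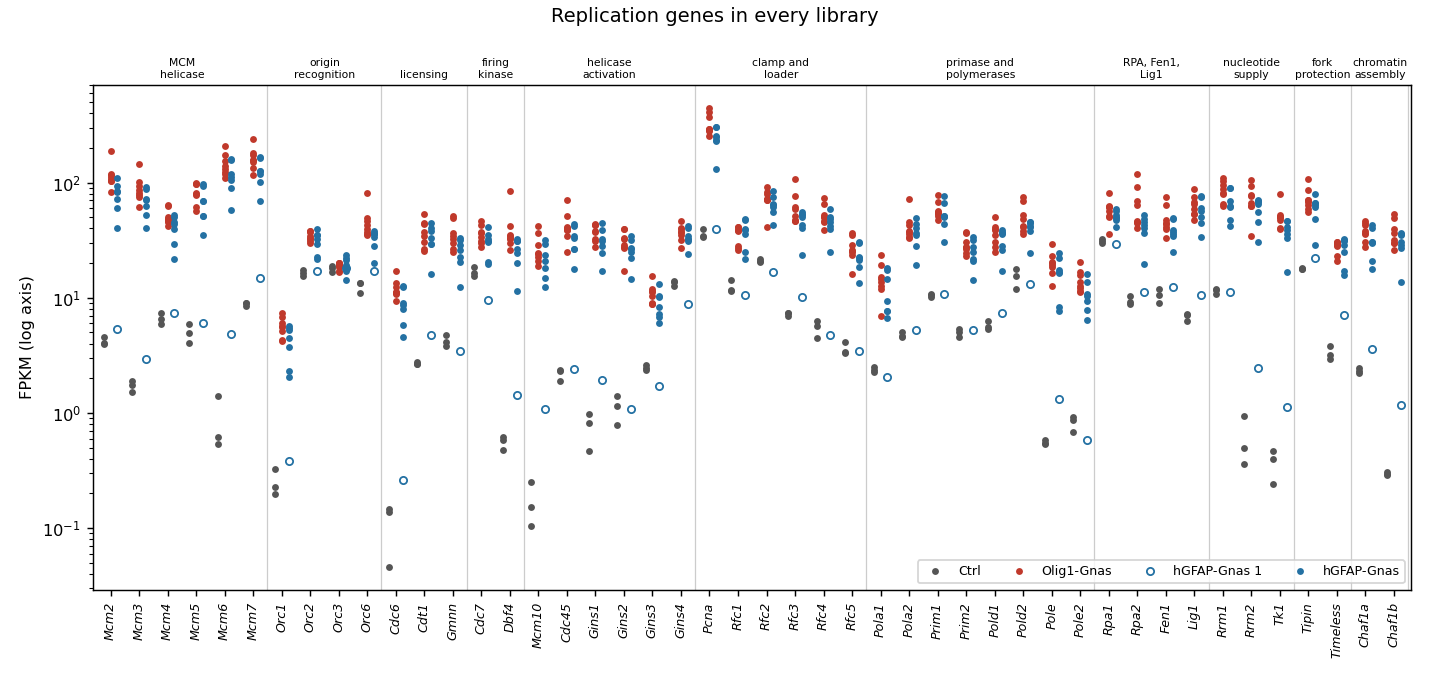
FPKM (log axis) of the 46 replication genes in each of the 19 libraries, ordered by role, with 1 point per library and hGFAP-Gnas 1 as an open circle. Mcm6 lay at 0.540 to 1.41 FPKM in Ctrl and at 110 to 207 FPKM in Olig1-Gnas, while hGFAP-Gnas 1 held 4.85 FPKM; Orc3 overlapped in all 3 groups.

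Markers of other cells moved in the same libraries. The summed level of 10 genes of mature granule neurons was 2023 to 2713 FPKM in Ctrl, 94.9 to 671 FPKM in Olig1-Gnas and 191 to 1714 FPKM in hGFAP-Gnas, with 9 and 8 of the 10 called lower. The 6 granule progenitor genes summed to 203 to 286 FPKM in Ctrl, 767 to 1022 FPKM in Olig1-Gnas and 202 to 938 FPKM in hGFAP-Gnas, and 5 of 6 rose in each knockout. In hGFAP-Gnas 1 these sums were 1714 and 202 FPKM, the nearest to Ctrl of its group. The 8 genes of microglia and macrophages summed to 61.2 to 91.9 FPKM in Ctrl, 483 to 1744 FPKM in Olig1-Gnas and 122 to 1067 FPKM in hGFAP-Gnas, and 6 and 7 of them rose. The 5 oligodendrocyte precursor genes summed to 45.6 to 50.4, 131 to 274 and 79.7 to 464 FPKM, with 3 and 5 of them higher, and the 6 genes of mature oligodendrocytes to 801 to 1050, 20.1 to 272 and 129 to 842 FPKM, with 6 and 1 lower. All 8 Purkinje cell genes were lower in Olig1-Gnas and 7 in hGFAP-Gnas; of the 6 genes of Bergmann glia and astrocytes 1 was higher in each and 4 and 3 were lower. Of 6 vascular genes none rose and 2 and 0 fell, and none of 4 T lymphocyte genes passed the filter on low values. None of the 4 choroid plexus genes was called. Their sums ran from 0.463 to 1221 FPKM in Ctrl, 4.91 to 2344 FPKM in Olig1-Gnas and 3.44 to 883 FPKM in hGFAP-Gnas. Of 4 blood cell genes 2 passed the filter and 0 were called, but 2 were lower in hGFAP-Gnas without hGFAP-Gnas 1. Without hGFAP-Gnas 1, the counts in hGFAP-Gnas were 9 of 10 lower for mature granule neurons, 5 of 6 higher for granule progenitors, 7 of 8 higher for microglia and macrophages and 5 of 5 higher for oligodendrocyte precursors. They were 3 of 6 lower for mature oligodendrocytes, 8 of 8 lower for Purkinje cells, 1 higher and 4 lower for Bergmann glia and astrocytes, 1 lower for vascular cells and 0 for choroid plexus. Without this library the lowest sum was 504 FPKM for granule progenitor genes, 624.6 FPKM for microglia and macrophage genes and 154 FPKM for oligodendrocyte precursor genes, and the highest sum of mature granule neuron genes was 1275 FPKM. The part of these cells in the levels of the replication genes was not tested, and in bulk tissue a change in the number of cells of a type cannot be told apart from a change in RNA per cell.

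The MCM helicase, which unwinds the strands, showed the largest single change. Mcm6 was at 0.540, 0.618 and 1.41 FPKM in Ctrl 1, 2 and 3. In Olig1-Gnas its lowest, median and highest values were 110, 135 and 207 FPKM, and in hGFAP-Gnas 4.85, 109 and 160 FPKM. Neither knockout overlapped Ctrl, and the low value of hGFAP-Gnas was that of hGFAP-Gnas 1. Mean levels were 0.855 ± 0.479 FPKM (SD, n = 3) in Ctrl, 145 ± 32.2 FPKM (SD, n = 8) in Olig1-Gnas and 101 ± 51.0 FPKM (SD, n = 8) in hGFAP-Gnas. Against Ctrl it differed by 6.30 ± 0.20 in Olig1-Gnas (limma, adjusted p = 1.08e-09) and 5.39 ± 0.84 in hGFAP-Gnas (adjusted p = 0.00596), or 5.92 ± 0.28 without hGFAP-Gnas 1. Mcm4, another subunit of the ring, differed least. It was at 6.51, 7.32 and 5.89 FPKM in Ctrl, at 42.0, 48.6 and 63.7 FPKM (lowest, median, highest) in Olig1-Gnas and at 7.33, 41.8 and 51.9 FPKM in hGFAP-Gnas. Ctrl overlapped neither knockout, although hGFAP-Gnas 1 was next to Ctrl 2. Its difference was 2.77 ± 0.14 (limma, adjusted p = 1.90e-08) and 2.11 ± 0.48 (adjusted p = 0.0114), or 2.40 ± 0.25 without hGFAP-Gnas 1. All 6 subunits rose in both knockouts, and those not yet named, Mcm2, Mcm3, Mcm5 and Mcm7, had differences of 4.47, 5.03, 3.77 and 4.04 in Olig1-Gnas and 3.41, 4.12, 3.04 and 3.26 in hGFAP-Gnas. The latter became 3.86, 4.63, 3.44 and 3.62 without hGFAP-Gnas 1.

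The origin recognition complex, which marks the places where replication can begin, was split. Orc1, its subunit that is destroyed and remade in each cell cycle, was at 0.200, 0.229 and 0.324 FPKM in Ctrl, at 4.24, 5.64 and 7.40 FPKM (lowest, median, highest) in Olig1-Gnas and at 0.385, 4.10 and 5.65 FPKM in hGFAP-Gnas. Ctrl was apart from both knockouts, with hGFAP-Gnas 1 next to it. The differences were 2.40 ± 0.19 (limma, adjusted p = 6.60e-07) and 1.75 ± 0.43 (adjusted p = 0.0136), the latter 1.98 ± 0.26 without hGFAP-Gnas 1. Orc3, a subunit of the stable core, was at 18.3, 16.7 and 18.8 FPKM in Ctrl, at 16.6, 19.1 and 20.2 FPKM in Olig1-Gnas and at 14.3, 18.7 and 23.4 FPKM in hGFAP-Gnas. All 3 groups overlapped, and the differences of 0.06 ± 0.11 (limma, adjusted p = 0.628) and 0.08 ± 0.15 (adjusted p = 0.679) were within their error, as was that of 0.09 ± 0.15 in hGFAP-Gnas without its first library. Their sign turned under 2 rescalings of the libraries, to -0.11 and -0.13 in Olig1-Gnas and to -0.05 and -0.10 in hGFAP-Gnas.

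The other subunits lay between these. Orc2 rose from a mean of 16.4 ± 0.918 FPKM to 34.3 ± 3.27 and 29.0 ± 7.91 FPKM, with differences of 1.02 ± 0.11 and 0.74 ± 0.23 (limma, adjusted p = 1.07e-05 and 0.0302). The lowest hGFAP-Gnas library, at 17.1 FPKM, fell within the range of Ctrl, and without hGFAP-Gnas 1 the difference was 0.84 ± 0.19. Orc6, the smallest subunit, rose from 12.6 ± 1.47 to 46.1 ± 15.1 and 30.7 ± 8.10 FPKM, by 1.74 ± 0.22 and 1.17 ± 0.25, the latter 1.28 ± 0.19 without hGFAP-Gnas 1. Orc4 and Orc5, taken from a list of other replication genes, were not called: Orc4 was at 16.3 ± 2.96, 15.4 ± 3.06 and 14.3 ± 2.38 FPKM and Orc5 at 13.6 ± 1.05, 19.7 ± 4.17 and 19.9 ± 4.28 FPKM in Ctrl, Olig1-Gnas and hGFAP-Gnas. Adjusted p-values of Orc5 were 0.0608 and 0.0569 (limma), just past the threshold, and without hGFAP-Gnas 1 it was called at 0.58 ± 0.15 (limma, adjusted p = 0.00676).

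Among the licensing factors, Cdc6, the ATPase that joins the origin recognition complex to load the helicase, was the lowest of all 46 members in Ctrl. It was at 0.145, 0.138 and 0.0463 FPKM in Ctrl, at 9.40, 11.3 and 16.9 FPKM (lowest, median, highest) in Olig1-Gnas and at 0.264, 8.36 and 12.6 FPKM in hGFAP-Gnas. Ctrl was apart from both knockouts. The differences were 3.54 ± 0.18 (limma, adjusted p = 1.64e-08) and 2.71 ± 0.60 (adjusted p = 0.0103). Geminin (Gmnn), which binds Cdt1 and prevents a further round of licensing, changed least of the 3, by 2.78 ± 0.21 and 1.95 ± 0.53, from 4.22 ± 0.490 FPKM to 35.7 ± 9.78 and 22.3 ± 10.1 FPKM. hGFAP-Gnas 1, at 3.45 FPKM, lay below every Ctrl library. Cdt1, which brings the helicase to the origin, rose from 2.70 ± 0.0723 FPKM to 37.1 ± 9.70 and 29.5 ± 13.3 FPKM. Leaving out hGFAP-Gnas 1, the differences were 3.07 ± 0.27 for Cdc6, 2.26 ± 0.26 for Gmnn and 3.14 ± 0.25 for Cdt1. With all hGFAP-Gnas libraries Cdt1 differed by 2.83 ± 0.53, so its difference was the largest of the 3 either way. As ratios of mean FPKM in hGFAP-Gnas to Ctrl the order was another, at 69.9-fold for Cdc6 and 10.9-fold for Cdt1.

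The 2 subunits of the origin firing kinase moved by very different amounts. The activating subunit Dbf4 was at 0.617, 0.474 and 0.587 FPKM in Ctrl, at 25.8, 33.9 and 84.7 FPKM (lowest, median, highest) in Olig1-Gnas and at 1.43, 25.5 and 32.6 FPKM in hGFAP-Gnas. Knockouts and Ctrl did not overlap, and the mean was 70.9-fold and 39.9-fold that of Ctrl. The differences were 4.61 ± 0.28 (limma, adjusted p = 8.02e-08) and 3.59 ± 0.68 (adjusted p = 0.00770), the latter 4.01 ± 0.27 without hGFAP-Gnas 1. The catalytic subunit Cdc7 was at 18.6, 16.5 and 15.4 FPKM in Ctrl, at 27.4, 35.2 and 46.5 FPKM in Olig1-Gnas and at 9.60, 30.7 and 41.2 FPKM in hGFAP-Gnas. Every Olig1-Gnas library was above Ctrl, as were 7 of 8 hGFAP-Gnas libraries, while hGFAP-Gnas 1 was below all Ctrl libraries. Cdc7 differed by 1.02 ± 0.16 in Olig1-Gnas (limma, adjusted p = 0.000181) and by 0.57 ± 0.35 in hGFAP-Gnas (adjusted p = 0.205), which was not called. Without hGFAP-Gnas 1 it was called at 0.76 ± 0.22 (adjusted p = 0.0112).

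Helicase activation factors all rose in both knockouts. Mcm10, a scaffold of the starting fork that is no part of the MCM ring, was at 0.250, 0.104 and 0.154 FPKM in Ctrl, at 18.9, 24.3 and 42.1 FPKM (lowest, median, highest) in Olig1-Gnas and at 1.09, 19.5 and 31.7 FPKM in hGFAP-Gnas. No library of either knockout was in the range of Ctrl. The differences were 4.55 ± 0.23 (limma, adjusted p = 1.62e-08) and 3.78 ± 0.68 (adjusted p = 0.00699), or 4.202 ± 0.26 for hGFAP-Gnas without its first library. Gins4, a subunit of the GINS complex, had the smallest difference of the 6, 1.38 ± 0.14 and 1.04 ± 0.37 (limma, adjusted p = 8.57e-06 and 0.0452). It already stood at 13.4 ± 0.717 FPKM in Ctrl, against 36.7 ± 5.70 and 30.8 ± 10.4 FPKM. With hGFAP-Gnas 1 at 8.92 FPKM, below Ctrl, its call in hGFAP-Gnas was lost under 19 of 23 alternatives, and its difference was 1.26 ± 0.16 without that library (limma, adjusted p = 9.13e-05). Cdc45, Gins1, Gins2 and Gins3 differed by 3.71, 4.43, 3.88 and 1.75 in Olig1-Gnas and by 2.91, 3.71, 3.18 and 1.23 in hGFAP-Gnas, which became 3.32, 4.14, 3.64 and 1.46 without hGFAP-Gnas 1.

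Pcna, the clamp that holds polymerases on DNA, was the most abundant of the 46 genes in every group. It was at 39.7, 34.3 and 34.0 FPKM in Ctrl, at 253, 291 and 445 FPKM (lowest, median, highest) in Olig1-Gnas and at 39.6, 242 and 304 FPKM in hGFAP-Gnas. hGFAP-Gnas 1 fell within the range of Ctrl and no other knockout library did. The differences were 3.13 ± 0.17 (limma, adjusted p = 3.82e-08) and 2.37 ± 0.53 (adjusted p = 0.0105). Rfc1, the large subunit of the loader that opens the clamp, moved least of this group, from 12.5 ± 1.49 FPKM to 34.8 ± 6.62 and 33.4 ± 13.1 FPKM, or by 1.39 ± 0.17 and 1.23 ± 0.39. The small loader subunits Rfc2, Rfc3, Rfc4 and Rfc5 rose by 1.71, 2.89, 3.04 and 2.57 in Olig1-Gnas and by 1.31, 2.21, 2.42 and 2.02 in hGFAP-Gnas. Leaving out hGFAP-Gnas 1 gave 2.68 ± 0.23 for Pcna, 1.44 ± 0.24 for Rfc1 and 1.54, 2.46, 2.78 and 2.32 for the small loader subunits.

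All 8 primase and polymerase subunits rose in both knockouts, by between 1.64 and 3.72 in Olig1-Gnas and between 1.16 and 3.02 in hGFAP-Gnas. Pole, the catalytic subunit of the leading strand polymerase, was at 0.583, 0.553 and 0.540 FPKM in Ctrl, at 12.7, 19.7 and 29.6 FPKM (lowest, median, highest) in Olig1-Gnas and at 1.33, 16.7 and 24.5 FPKM in hGFAP-Gnas. It was above Ctrl in all 16 knockout libraries, by 3.72 ± 0.21 (limma, adjusted p = 3.73e-08) and 3.02 ± 0.61 (adjusted p = 0.00849). Pold2, an accessory subunit of the lagging strand polymerase, had the smallest difference, 1.64 ± 0.23 and 1.16 ± 0.34, at 15.1 ± 2.99 FPKM in Ctrl and 50.2 ± 14.6 and 36.8 ± 11.7 FPKM in the knockouts. The catalytic subunit Pold1 rose by 2.43 ± 0.19 and 1.98 ± 0.42. Pola1, Pola2, Prim1 and Prim2, which together make the primers, had close differences of 2.15, 2.87, 2.35 and 2.31 in Olig1-Gnas and 1.57, 2.32, 1.91 and 1.82 in hGFAP-Gnas. With hGFAP-Gnas 1 left out, the difference in hGFAP-Gnas was 3.37 ± 0.32 for Pole, 1.35 ± 0.20 for Pold2 and 2.22 ± 0.23 for Pold1.

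On the lagging strand, DNA ligase Lig1, which seals Okazaki fragments, rose most, from 6.88 ± 0.504 FPKM to 63.6 ± 13.1 and 50.7 ± 21.6 FPKM. Its differences were 3.01 ± 0.17 (limma, adjusted p = 4.34e-08) and 2.54 ± 0.48 (adjusted p = 0.00745). Rpa1, the large subunit of the protein that coats single strands and that also serves DNA repair, had the smallest difference of any member that rose, 0.83 ± 0.19 and 0.59 ± 0.19 (limma, adjusted p = 0.00246 and 0.0326). It was at 31.3, 32.3 and 30.1 FPKM in Ctrl, at 35.8, 58.9 and 81.4 FPKM (lowest, median, highest) in Olig1-Gnas and at 29.2, 50.2 and 58.8 FPKM in hGFAP-Gnas. Only hGFAP-Gnas 1 among the knockout libraries was not above Ctrl. Its partner Rpa2 differed by 2.56 ± 0.30 and 1.73 ± 0.40 and the flap nuclease Fen1 by 2.07 ± 0.22 and 1.56 ± 0.34. In hGFAP-Gnas without hGFAP-Gnas 1 the differences were 2.82 ± 0.23 for Lig1, 0.68 ± 0.12 for Rpa1, 1.94 ± 0.25 for Rpa2 and 1.75 ± 0.19 for Fen1.

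Nucleotide supply showed a contrast within a single enzyme. Ribonucleotide reductase, which makes deoxynucleotides, pairs the large subunit Rrm1 with the small subunit Rrm2. Rrm2 was at 0.945, 0.499 and 0.358 FPKM in Ctrl, at 34.6, 71.6 and 106 FPKM (lowest, median, highest) in Olig1-Gnas and at 2.45, 60.1 and 70.0 FPKM in hGFAP-Gnas. The groups did not overlap with Ctrl, and the differences were 5.48 ± 0.27 (limma, adjusted p = 1.62e-08) and 4.66 ± 0.79 (adjusted p = 0.00673). Rrm1 started at 11.5 ± 0.641 FPKM in Ctrl and reached 85.8 ± 17.0 and 59.2 ± 26.1 FPKM, a difference of 2.78 ± 0.17 and 2.08 ± 0.50. Rrm2b, the alternative small subunit that is induced by p53, was not called and stood at 7.09 ± 0.662, 6.83 ± 1.99 and 6.67 ± 0.909 FPKM. Thymidine kinase Tk1, of the salvage pathway, rose by 5.23 ± 0.19 and 4.23 ± 0.81 from 0.369 ± 0.116 FPKM to 51.5 ± 12.7 and 32.5 ± 15.8 FPKM. Once hGFAP-Gnas 1 was left out, the differences in hGFAP-Gnas were 5.16 ± 0.25 for Rrm2, 2.38 ± 0.23 for Rrm1 and 4.74 ± 0.27 for Tk1.

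Fork protection and chromatin assembly moved in the same direction. Timeless, which with Tipin steadies the moving fork, rose by 2.72 ± 0.14 and 2.39 ± 0.39 and Tipin by 1.94 ± 0.18 and 1.44 ± 0.35. Tipin was already at 17.9 ± 0.302 FPKM in Ctrl, where Timeless was at 3.30 ± 0.441 FPKM. Chaf1b, a subunit of the factor that places histones behind the fork, was at 0.306, 0.288 and 0.296 FPKM in Ctrl, at 25.8, 34.4 and 53.1 FPKM (lowest, median, highest) in Olig1-Gnas and at 1.18, 29.9 and 36.9 FPKM in hGFAP-Gnas. All knockout libraries were above Ctrl, and the differences were 4.83 ± 0.21 (limma, adjusted p = 5.69e-09) and 4.04 ± 0.75 (adjusted p = 0.00730). Its partner Chaf1a, at 2.33 ± 0.114 FPKM in Ctrl, differed by 3.53 ± 0.16 and 2.85 ± 0.56. The hGFAP-Gnas libraries other than the first gave 2.61 ± 0.24 for Timeless, 1.61 ± 0.25 for Tipin, 4.51 ± 0.26 for Chaf1b and 3.19 ± 0.24 for Chaf1a.

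**Figure D2:**
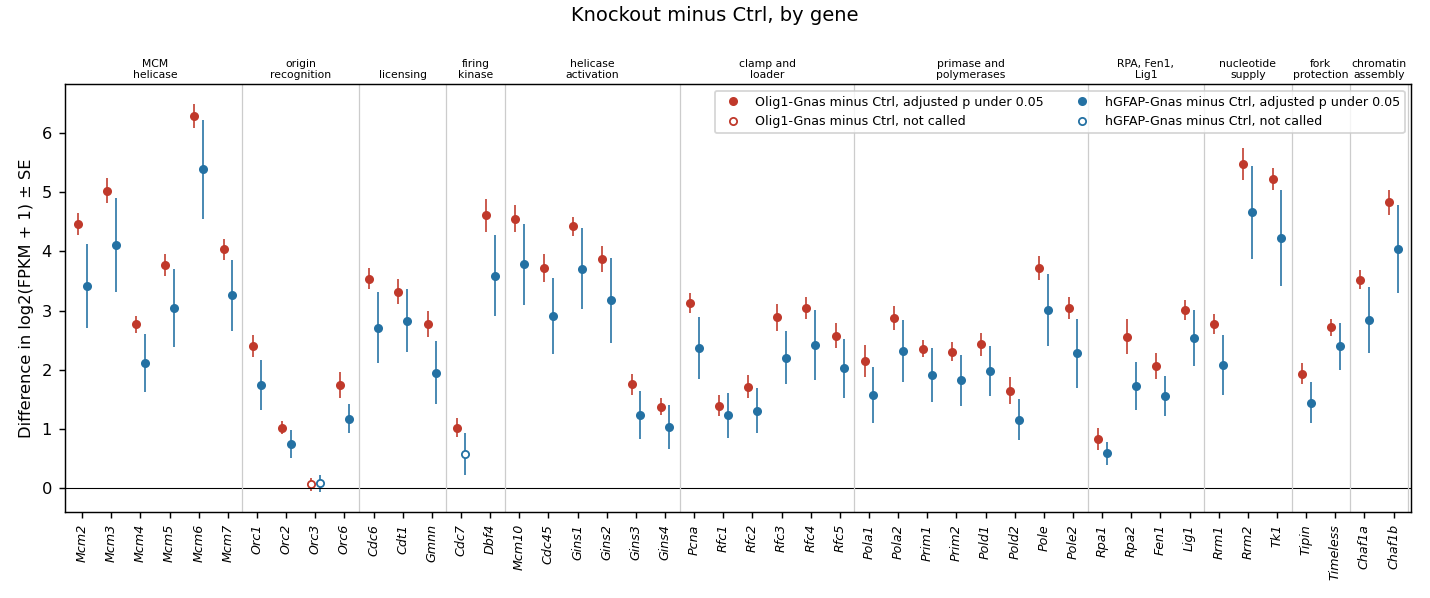
Difference in log2(FPKM + 1) from Ctrl, with SE, of each member in Olig1-Gnas and hGFAP-Gnas, ordered by role. Open points were not called. Orc3 in both knockouts and Cdc7 in hGFAP-Gnas were not called, and Mcm6 had the largest difference of the members, 6.30 and 5.39.

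Other genes of replication, 40 measured of 42 listed, moved alike in direction: 35 rose and none fell in Olig1-Gnas, and 29 rose and none fell in hGFAP-Gnas, with median differences of 1.76 and 1.34. The largest changes were those of Top2a, which untangles replicated strands, at 6.92 ± 0.23 and 5.74 ± 0.96; of Uhrf1, which guides maintenance methylation, at 6.02 ± 0.20 and 5.04 ± 0.86; of the checkpoint mediator Clspn at 4.14 ± 0.19 and 3.36 ± 0.70; and of the chromatin remodeler Hells at 4.09 ± 0.25 and 3.13 ± 0.66. In Olig1-Gnas the 5 not called were Orc4, Orc5, the small polymerase subunit Pold4, Donson and Rrm2b. In hGFAP-Gnas Mcm9, Pole4, Chtf8, Rnaseh2c, Asf1a and Top1 were not called either. Without hGFAP-Gnas 1, 37 of the 40 rose and none fell, with a median of 1.54.

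Levels of subunits of a complex lay closer together in the knockouts than in Ctrl. Across all members, the SD of the log2 mean FPKM was 2.12 in Ctrl, 1.05 in Olig1-Gnas and 1.04 in hGFAP-Gnas, and 11 members had a mean under 1 FPKM in Ctrl and none in the knockouts. The highest mean of an MCM subunit was 10.3-fold the lowest in Ctrl (Mcm7 at 8.83 and Mcm6 at 0.855 FPKM), 3.22-fold in Olig1-Gnas and 3.07-fold in hGFAP-Gnas (Mcm7 over Mcm4 in both). Within single libraries this ratio ranged over 6.02 to 16.6 in Ctrl, over 2.77 to 3.79 in Olig1-Gnas and over 2.58 to 4.997 in hGFAP-Gnas, so Ctrl did not overlap either knockout. Mcm6, the lowest MCM subunit in Ctrl, was the second highest of all the MCM genes in both knockouts, at 145 and 101 FPKM. The span in hGFAP-Gnas was 3.09-fold without hGFAP-Gnas 1, with single libraries from 2.58 to 3.497.

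For the 6 subunits of the origin recognition complex, Orc4 and Orc5 included, the ratio was 71.5-fold in Ctrl, 8.14-fold in Olig1-Gnas and 8.39-fold in hGFAP-Gnas, with Orc1 the lowest in every group. Single libraries ranged from 58.0 to 97.0 in Ctrl, from 5.85 to 10.98 in Olig1-Gnas and from 6.62 to 47.4 in hGFAP-Gnas. Among the 4 GINS subunits the ratio was 17.6-fold, 3.38-fold and 3.86-fold. Gins1 was the lowest in Ctrl, at 0.758 FPKM, and the highest in Olig1-Gnas, at 36.9 FPKM, while Gins4 led in Ctrl. The 5 clamp loader subunits were 5.81-fold, 2.68-fold and 2.88-fold apart, from Rfc5 to Rfc2 in each group. Their single-library ratios overlapped, at 5.25 to 6.20 in Ctrl and up to 6.70 in Olig1-Gnas. The spans in hGFAP-Gnas without hGFAP-Gnas 1 were 7.91-fold for origin recognition, with single libraries from 6.62 to 15.4, 3.82-fold for GINS and 2.83-fold for the clamp loader. These ratios are descriptions of levels and were not tested.

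**Figure D3:**
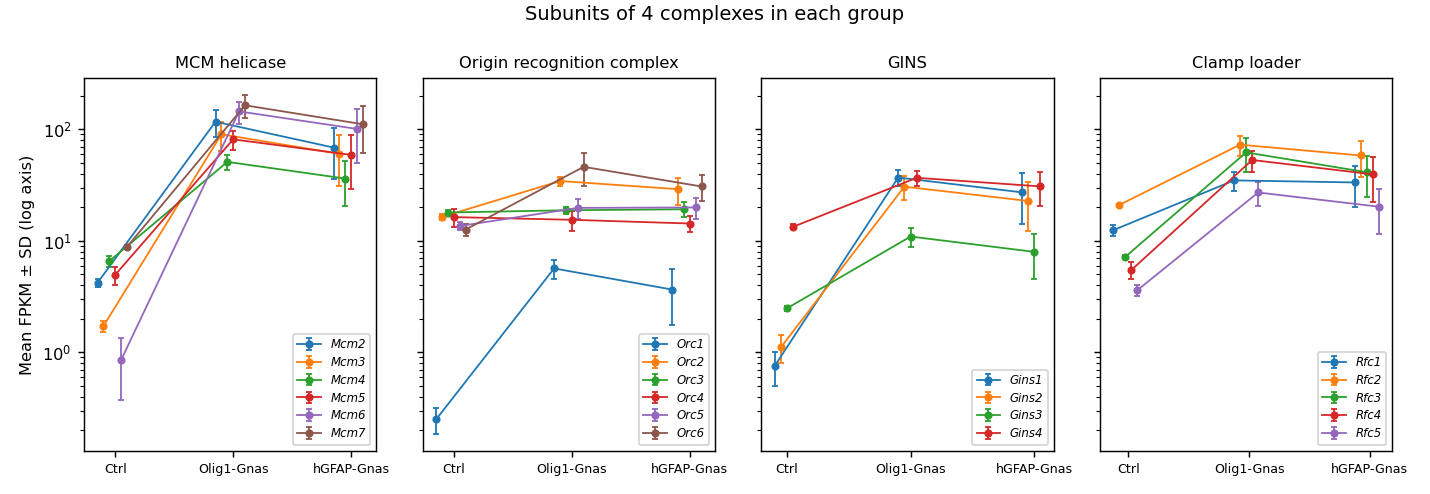
Mean FPKM with SD (log axis) of each subunit of the MCM, origin recognition, GINS and clamp loader complexes in Ctrl (n = 3), Olig1-Gnas (n = 8) and hGFAP-Gnas (n = 8); lines join the same gene. The subunits converge from a 10.3-fold to a 3.22-fold and 3.07-fold span for MCM. For origin recognition they converge from 71.5-fold to 8.14-fold and 8.39-fold, where Orc3 and Orc4 stay nearly level. Orc5, which was not called, has means 1.45-fold and 1.47-fold that of Ctrl.

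Direct comparison of the knockouts called no member. Of 14386 genes, 21 (0.146%) were higher and 38 (0.264%) lower in Olig1-Gnas than in hGFAP-Gnas, and limma's adjusted p of the members ran from 0.155 to 0.933. The differences of 45 of 46 members were nonetheless positive, with a median of 0.65 for the members and 0.01 for all genes, and Orc3 at -0.02 ± 0.10 was the only negative value. At an unadjusted p under 0.05 there were 12 members higher in Olig1-Gnas and none lower, where 10.2% of all genes were higher: Mcm2, Mcm4, Orc1, Orc6, Cdc6, Gmnn, Dbf4, Pcna, Rfc3, Rpa2, Fen1 and Rrm1. The widest difference was that of Mcm2, 1.05 ± 0.45 (limma, adjusted p = 0.186), and the smallest positive one that of Rfc1, 0.16 ± 0.25 (adjusted p = 0.712). Without hGFAP-Gnas 1 the median was 0.32, 44 differences were positive, and the lowest adjusted p was 0.152. Of the 8 libraries of hGFAP-Gnas 7 had Y-linked signal and of those of Olig1-Gnas 2, and with this signal as a term the median was 0.44. A p-value that misses the threshold does not show that the knockouts had equal levels.

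The knockouts were also compared per unit of Mki67, which marks cells in cycle. Mki67 itself was at 0.325, 0.188 and 0.215 FPKM in Ctrl, at 78.7, 137 and 264 FPKM (lowest, median, highest) in Olig1-Gnas and at 2.70, 95.3 and 165 FPKM in hGFAP-Gnas. The knockouts overlapped each other and not Ctrl, with differences from Ctrl of 6.89 ± 0.31 and 5.69 ± 0.95, and Mki67 was 1.19 ± 0.62 higher in Olig1-Gnas than in hGFAP-Gnas (limma, adjusted p = 0.241). As log2 differences from Mki67, all 46 members were lower in Olig1-Gnas, with a median of -0.54, where the median of all genes was -1.19 and 0 of 14385 genes were called higher and 6 (0.0417%) lower. This subtracts the difference of Mki67, 1.19, from that of each gene, and only 0.820% of the 14385 genes came out above 0, so a negative sign is no feature of the members. No member was called, and none reached an unadjusted p under 0.05, where 0.0278% of all genes were higher and 29.2% lower. The members' adjusted p-values from limma ran from 0.180 to 0.829.

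Levels relative to Mki67 differed between members. Pcna was at 1.55 to 3.22 times the FPKM of Mki67 in Olig1-Gnas, with a median of 2.19, and at 1.83 to 5.50 times in hGFAP-Gnas 2 to 8. Mcm6 was at 0.586 to 1.40 times in Olig1-Gnas and at 0.959 to 2.08 times in hGFAP-Gnas 2 to 8, and Orc1 at 0.0280 to 0.0550 and 0.0305 to 0.0539 times. In hGFAP-Gnas 1, where Mki67 was nearest to Ctrl, the ratio was 14.7 for Pcna, 10.8 for Rpa1, 6.77 for Orc3 and 1.80 for Mcm6. The ratio difference was closest to 0 for Mcm2, at -0.14 ± 0.64, and farthest from it for Orc3, at -1.21 ± 0.68. Without hGFAP-Gnas 1 the median ratio difference was -0.28. It was -0.05 in the shallower libraries, where 14 members were positive, and -1.06 in the deeper ones, which hold hGFAP-Gnas 1. Of the shallower libraries, 0 of 4 from Olig1-Gnas and 4 of 4 from hGFAP-Gnas had Y-linked signal. There it cannot be told apart from the knockout.

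Dividing by Mki67 did not narrow the spread of most members between libraries. The SD of Mki67 itself in log2(FPKM + 1) was 0.569 in Olig1-Gnas and 1.80 in hGFAP-Gnas. A member that varied much less than Mki67 could not become less variable as the ratio, however closely it followed Mki67. The counts below therefore do not show how closely members followed Mki67. In Olig1-Gnas the median SD of a member was 0.309 in log2(FPKM + 1) and 0.469 as the ratio, and 5 of 46 members were less variable as the ratio. Olig1-Gnas 6, with the highest Mki67 of all libraries at 264 FPKM, had the lowest ratio of its group for many members, such as Rrm2 at 0.131; without it the medians were 0.275 and 0.311, with 17 members less variable as the ratio. In hGFAP-Gnas the medians were 0.922 and 0.943, with 23 members less variable as the ratio, among them Mcm6, whose SD was 1.57 in its level and 0.409 as the ratio. Orc3 was the opposite case, at 0.217 and 1.72. Without hGFAP-Gnas 1 the medians were 0.425 and 0.474.

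**Figure D4:**
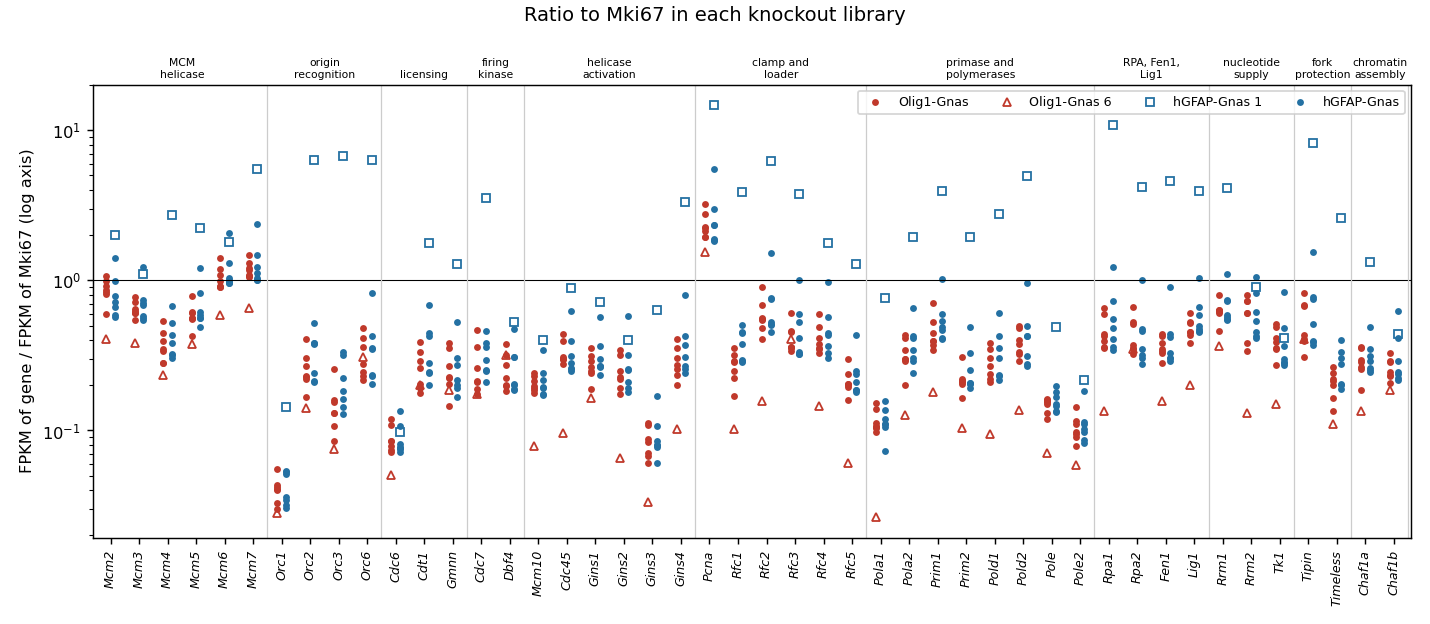
FPKM of each member divided by FPKM of Mki67 (log axis) in each knockout library, with hGFAP-Gnas 1 and Olig1-Gnas 6 as open symbols and a line at equal levels. Pcna lies above 1 in every library, Orc1 at or below 0.143, and hGFAP-Gnas 1 is at 6.77 for Orc3 and 1.80 for Mcm6.

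Within single libraries, 4 ratios of paired factors were compared in log2(FPKM + 1) by two-sided exact permutation tests, where the 165 arrangements against Ctrl allow no p below 0.00606, and with Benjamini-Hochberg adjustment over the 12 tests. The ratio of Rrm2 to Rrm1 was -2.98 ± 0.33 in Ctrl, -0.27 ± 0.57 in Olig1-Gnas and -0.39 ± 0.62 in hGFAP-Gnas. It was higher than Ctrl by 2.70 and 2.58 (exact permutation, adjusted p = 0.0104 for both), in 16 of 16 knockout libraries, and the knockouts differed by 0.12 (adjusted p = 0.679). Without hGFAP-Gnas 1 it was higher than Ctrl by 2.79 and the knockouts differed by -0.08. The ratio of Pole to Pold1 was -2.11 ± 0.12, -0.82 ± 0.30 and -1.07 ± 0.45, higher by 1.29 and 1.04 (exact permutation, adjusted p = 0.0104 for both). The ratio of Orc1 to Orc2 was -3.80 ± 0.05 in Ctrl, -2.42 ± 0.19 in Olig1-Gnas and -2.79 ± 0.40 in hGFAP-Gnas, higher by 1.38 and 1.006 (exact permutation, adjusted p = 0.0104 for both).

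For Orc1 to Orc2 the knockouts also differed from each other, by 0.37 (exact permutation, 12870 arrangements, adjusted p = 0.0170), and by 0.24 without hGFAP-Gnas 1, at -3.71 the lowest of its group (adjusted p = 0.0340). For Pole to Pold1 they differed by 0.25 (adjusted p = 0.236), and by 0.14 without that library. The differences of hGFAP-Gnas from Ctrl were then 1.15 for Pole to Pold1 and 1.14 for Orc1 to Orc2. With an offset of 0.1 in place of 1, which shrinks low genes less, the differences from Ctrl were 2.30 and 1.96 for Pole to Pold1 and 2.97 and 2.36 for Orc1 to Orc2.

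The ratio of Cdt1 to its inhibitor Gmnn was below 0 in all 3 Ctrl libraries, from -0.65 to -0.39. It was 0.06 ± 0.34 in Olig1-Gnas, with a range of -0.32 to 0.81, and 0.39 ± 0.19 in hGFAP-Gnas, with a range of 0.00 to 0.62, so neither knockout overlapped Ctrl. The differences from Ctrl were 0.55 (exact permutation, adjusted p = 0.0436) and 0.88 (exact permutation, adjusted p = 0.0104), and Olig1-Gnas was lower than hGFAP-Gnas by -0.33 (exact permutation, adjusted p = 0.0419), the reverse of the order of single members. hGFAP-Gnas 1 lay within its group for this ratio, and the difference from Ctrl without it was 0.88. The call of Olig1-Gnas against Ctrl was lost when any of 7 single libraries was left out, Ctrl 1 to 3 and Olig1-Gnas 5 to 8 (exact permutation, adjusted p = 0.050 to 0.16). That between the knockouts was lost without any of 12 single libraries, Olig1-Gnas 1 to 3 and 5 to 8 and hGFAP-Gnas 1 to 4 and 8 (exact permutation, adjusted p = 0.050 to 0.0724).

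**Figure D5:**
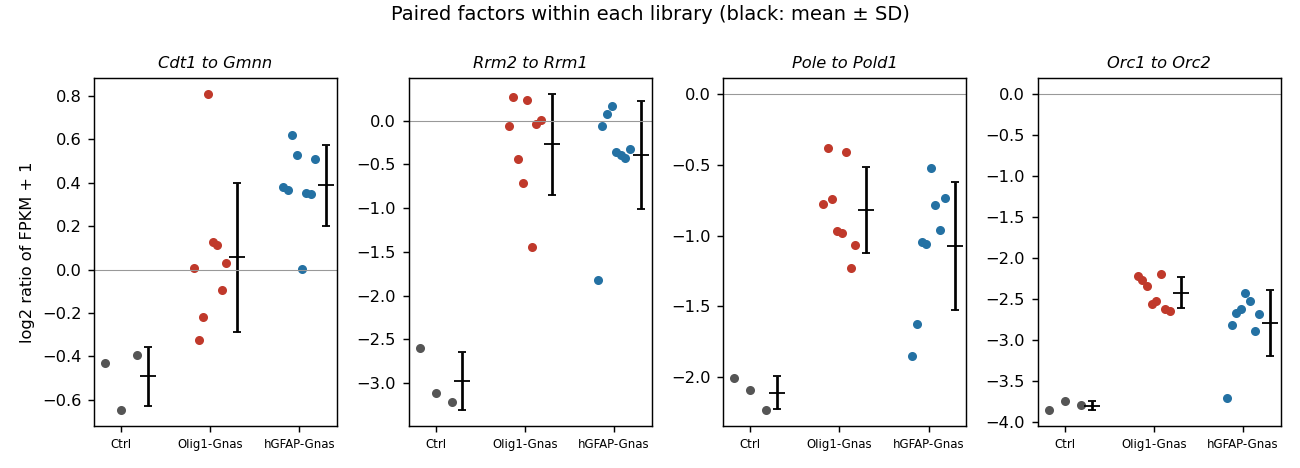
log2 ratio of FPKM + 1 of 4 pairs of genes in each library, grouped by Ctrl, Olig1-Gnas and hGFAP-Gnas, with the mean and SD in black. Rrm2 to Rrm1 rises from -2.98 in Ctrl to -0.27 and -0.39, and Cdt1 to Gmnn is below 0 in all Ctrl libraries and at 0.06 and 0.39 on average in the knockouts.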

How the data were processed

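The 46 members and all gene lists were chosen with earlier results of these data known. The deposited values are FPKM per gene and library, in a table for each knockout that also holds the Ctrl libraries; by the submitters' processing notes, TopHat and Cufflinks were used on mm9. Their versions and the annotation are not given in the sources used here. FPKM as the unit was taken from the layout of the deposited tables. Ctrl 2 and 3 are identical between the tables, and Ctrl 1 differs in 5106 genes, 14 of them members. The ratio between the tables was 0.989 to 1.015 over the members only. Other genes can differ more, as Gnas did. Each comparison with Ctrl used its own table. An exact 0 can be a failed estimate, and 2605 genes are at 0 everywhere.

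The test was limma 3.58.1 (trend, robust) in R 4.3.3 on log2(FPKM + 1) of genes that reached 1 FPKM in 3 or more libraries, with Benjamini-Hochberg adjustment over all genes; the script was tested on simulated data. The test of ratios subtracted the value of Mki67. Relative depth was inferred from steps among values under 0.5 FPKM, and libraries under 0.6 of Ctrl 2 were the shallower class. The labels do not say whether libraries came from separate mice, so p-values measure the spread between these samples. Named genes are, in each role, those with the largest and smallest difference in Olig1-Gnas, members not called, genes of the 4 ratios, Mki67, and the 4 largest of the other replication genes, of which Ticrr and Supt16 were not matched; values of other members were added after they were seen. Alternatives changed the offset (0.1), the filter, the scaling, the threshold (0.01), the design and the libraries. Replicate numbers were not paired in the comparisons. Promoters were taken from RefSeq by symbol, and 9 members had no entry.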

Additional observations from a re-analysis of the deposited data

Results flagged for a closer look

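Across 102 groups of 8 knockout libraries, 6 held a value farther from the others than Dixon's critical value of 0.526 allows at the 0.05 level, a limit that chance passes in about 1 of 20 groups. All 6 were in Olig1-Gnas. Olig1-Gnas 3 was highest for Mcm2, at 189 FPKM, and for Tk1, at 80.4 FPKM. Olig1-Gnas 6 was highest for Orc6, at 81.3 FPKM, and for Dbf4, at 84.7 FPKM, and lowest for the clamp loader subunit Rfc2, at 41.2 FPKM. Olig1-Gnas 4 was highest for the polymerase subunit Pola2, at 71.6 FPKM. Olig1-Gnas 3 had the highest summed level of the members, 3446 FPKM, and Olig1-Gnas 6 the highest Mki67, 264 FPKM. In Olig1-Gnas all 6 genes were called higher than Ctrl also when any single library was left out.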

How the results depend on the processing

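In Olig1-Gnas against Ctrl, 44 or 45 members were called under every alternative run, and no member was called lower in any comparison. In hGFAP-Gnas the count of 44 became 0 with a replicate block, where limma called 0 of 14305 genes in either direction. With the block the members' median was 1.71 and that of all genes 0.18. In a comparison with Ctrl the block leaves only the knockout libraries numbered 1, 2 and 3, as Ctrl is, to inform the difference. The count also became 0 in the deeper libraries alone (0.0433% of genes) and 18 at an adjusted p under 0.01 (5.29% of genes). It became 19 (4.78%) to 45 (38%) when single libraries were left out. Replicate numbers did not pair the samples: same-numbered samples correlated at -0.178 to 0.0511 (Olig1-Gnas and Ctrl), -0.0975 to 0.124 (hGFAP-Gnas and Ctrl) and -0.172 to 0.254 (between knockouts), and the block left 45 members called in Olig1-Gnas and 0 between knockouts. The cause of the changes was not tested.

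For Orc3 against Ctrl, signs turned under upper quartile scaling (-0.11 and -0.052), quantile normalization (-0.13 and -0.10), in shallower libraries for Olig1-Gnas (-0.030) and, for hGFAP-Gnas, with the block (-0.12), in deeper libraries (-0.032) and in those without hGFAP-Gnas 1 (-0.062). Between knockouts Orc3 turned with the Y-linked term (0.071) and in deeper libraries (0.15), and without single libraries it ranged from -0.072 to 0.024 and Rfc1 from -0.044 (without hGFAP-Gnas 1) to 0.25. As ratios to Mki67, values turned with the Y-linked term for Mcm2 (0.045) and Tk1 (0.052). Without single libraries Mcm2 ranged from -0.23 to 0.0012 and Rpa2 from -0.49 to 0.017, both positive without hGFAP-Gnas 1. They turned without that library and Olig1-Gnas 6 for Mcm2 (0.13), Cdc45 (0.012), Rpa2 (0.055) and Tk1 (0.060). In shallower libraries they turned for Mcm2 (0.30), Mcm3 (0.021), Mcm7 (0.047), Orc1 (0.015), Gmnn (0.0029), Dbf4 (0.024), Cdc45 (0.083), Pcna (0.077), Rfc3 (0.022), Pold2 (0.062), Rpa2 (0.30), Fen1 (0.055), Rrm2 (0.10) and Tk1 (0.24). Among these libraries Y-linked signal was in every one from hGFAP-Gnas and in none from Olig1-Gnas.

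Leaving out single libraries moved the log2 ratio of Cdt1 to Gmnn between 0.44 and 0.60 in Olig1-Gnas against Ctrl and between -0.44 and -0.28 between knockouts, and the log2 ratio of Rrm2 to Rrm1 between knockouts from -0.084 to 0.29. Quantile normalization changed the counts of all genes in hGFAP-Gnas from 3738 higher and 1832 lower to 2614 and 2718, and in Olig1-Gnas from 5134 and 3351 to 4231 and 4125. Upper quartile scaling gave 3200 and 2312 in hGFAP-Gnas and 4315 and 3983 in Olig1-Gnas. The median of all genes moved from 0.22 to 0.06 in Olig1-Gnas under both, and from 0.19 to 0.07 and -0.01 in hGFAP-Gnas, while that of the members was 2.67 and 2.69 in Olig1-Gnas and 2.13 and 1.99 in hGFAP-Gnas. Depth in reads is unknown, so counting error was not estimated.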
